A study of Mus musculus with 7 samples.

Results

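Nuclear factor kappa B (NF-kB) is a family of dimeric transcription factors that carries inflammatory signals to the nucleus. In resting cells the dimers are held in the cytoplasm by IκB proteins. Receptors for tumour necrosis factor, interleukin-1 and bacterial products activate a kinase complex that marks IκB for destruction, and the freed dimers switch on adhesion molecules and chemokines in endothelium, together with genes for inhibitors that end the signal. The 10 genes described here are 5 subunit genes, Nfkb1, Nfkb2, Rela, Relb and Rel, and 5 others. Those 5, Nfkbia, Nfkbie, Nfkbiz, Tnfaip3 and Birc3, are induced by the pathway itself and are grouped here as feedback inhibitors. All 10 were taken by gene symbol from tables of 30899 genes and were found in all 7 libraries.

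RNA came from endothelial cells pulled with beads from mouse skeletal muscle, without further treatment. A knockout genotype, with 4 libraries, was labelled as lacking GLUT1, the glucose transporter encoded by Slc2a1, in the endothelium, and the other, with 3 libraries, was labelled wild type. The Cre driver, the deleted exons and the age of the mice were not stated in the labels, nor was it stated whether each library was from a separate mouse, so the spread between libraries may be partly technical. Slc2a1 stood at 953, 1435, 824 and 1087 normalised counts in the libraries labelled knockout and at 1032, 1083 and 1266 in wild type. The groups overlapped, and a lower level of the deleted gene was not detected (a log2 difference of -0.09 with SE 0.18, limma adjusted p = 0.738), and directions below rest on the labels, which is why the group is called knockout-labelled. A log2 fold change here is the knockout-labelled minus the wild-type mean of log2(normalised count + 1), and "fell" or "rose" is used where limma gave an adjusted p under 0.05.

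The libraries differed in more than single genes. A rough estimate of depth, from a step that did not turn most low values into whole reads, gave 11300000 to 14200000 reads in knockout-labelled libraries and 14700000 to 18000000 in wild type. All 8 endothelial markers fixed for this work were abundant, summing to 110597 to 122093 and to 82259 to 106464 normalised counts. The nuclear RNA Malat1 took 0.311% ± 0.117 (SD, n = 4) of knockout-labelled counts and 1.32% ± 0.603 (SD, n = 3) of wild-type counts. Genes of olfactory and vomeronasal receptors, which muscle endothelium is not known to use, averaged 1.36 to 1.73 and 2.12 to 3.19 log2 units per library, highest in wild-type library 1. Of 4 smooth muscle markers 4 rose. They summed to 48183 to 59170 normalised counts in knockout-labelled libraries and 28978 to 36869 in wild type. The 5 pericyte markers summed to 10001 to 14405.5 and 8190 to 16988. Of 4 fibroadipogenic progenitor markers 1 rose (Col1a1) and 0 fell. They summed to 3990 to 5566 in knockout-labelled libraries and 1963 to 3691.5 in wild type. The libraries thus held RNA of other cells too, and which cells the counts of the 10 genes came from was not tested. Of 12 immediate early genes, whose transcripts turn over fast, 0 rose, 2 fell (Egr3 and Nr4a1) and 10 did neither.

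Promoter sequence from RefSeq (build GRCm38.p6) was found for 7 of the 10 genes, namely Nfkb2, Rela, Rel, Nfkbia, Nfkbie, Tnfaip3 and Birc3. Each window runs from 250 bases before to 50 bases after an annotated start site. Because these inhibitors, and several subunit genes, are known targets of NF-kB, the windows were searched on both strands for the NF-kB consensus, counting overlapping matches separately. At least 1 match stood in 7 of 10 windows of these genes and in 8.46% of 32851 windows in the table. Nfkb2 has 3 of the 10 windows and Tnfaip3 has 2. Windows 2 and 3 of Nfkb2 overlap and share 1 site, at offsets of 11 and -225 bases from their start sites. The 7 windows with a match are thus not all separate. They belong to Nfkb2, Rel, Nfkbia, Nfkbie and Tnfaip3. The windows of Rela and Birc3 and the second window of Tnfaip3 held none. The sequences shown belong to Rel and Nfkbie, whose values did not overlap between the groups, and to Nfkbia and Tnfaip3, whose values did. All 4 windows held a match. Capitals mark the matches, and each sequence is written 5′ to 3′ on the strand of its gene. The windows are chr11:23770920-23771219 (minus strand) for Rel, chr17:45555450-45555749 (plus strand) for Nfkbie, chr12:55492598-55492897 (minus strand) for Nfkbia and chr10:19015361-19015660 (minus strand) for the first start of Tnfaip3.
Rel: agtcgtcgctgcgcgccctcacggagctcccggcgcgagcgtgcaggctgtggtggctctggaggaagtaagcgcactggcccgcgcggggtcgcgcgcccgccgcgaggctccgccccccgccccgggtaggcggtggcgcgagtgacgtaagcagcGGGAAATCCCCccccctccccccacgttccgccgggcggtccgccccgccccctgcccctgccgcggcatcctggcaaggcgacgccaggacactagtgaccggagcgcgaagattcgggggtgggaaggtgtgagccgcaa
Nfkbie: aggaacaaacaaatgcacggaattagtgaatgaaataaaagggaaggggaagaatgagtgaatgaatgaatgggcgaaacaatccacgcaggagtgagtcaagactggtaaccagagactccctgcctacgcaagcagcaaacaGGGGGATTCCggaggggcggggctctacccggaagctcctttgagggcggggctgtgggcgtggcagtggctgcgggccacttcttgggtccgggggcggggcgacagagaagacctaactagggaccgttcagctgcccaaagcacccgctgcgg
Nfkbia: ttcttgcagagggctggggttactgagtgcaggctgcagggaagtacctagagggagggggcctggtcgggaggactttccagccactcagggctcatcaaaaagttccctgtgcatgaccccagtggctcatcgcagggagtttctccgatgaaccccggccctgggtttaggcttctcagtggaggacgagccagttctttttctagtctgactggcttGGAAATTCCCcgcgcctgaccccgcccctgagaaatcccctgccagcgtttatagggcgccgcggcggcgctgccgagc
Tnfaip3: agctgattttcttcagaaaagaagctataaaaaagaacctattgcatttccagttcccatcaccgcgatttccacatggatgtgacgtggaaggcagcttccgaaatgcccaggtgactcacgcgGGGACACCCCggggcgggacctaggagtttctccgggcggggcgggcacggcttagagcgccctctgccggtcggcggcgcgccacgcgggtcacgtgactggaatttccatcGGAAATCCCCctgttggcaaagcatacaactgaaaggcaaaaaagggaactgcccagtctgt
Among these 4 windows the match nearest to a start site was the second of Tnfaip3, which began 12 bases before it, and the match of Nfkbia began 29 bases before it. In Rel, 2 matches overlapped and began 92 and 91 bases before the start site.

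Of the 10 genes, 2 fell and 0 rose in the knockout-labelled libraries, the subunit gene Rel and, in the inhibitor group, Nfkbiz. The product of Nfkbiz also helps switch on some NF-kB targets. The other 8 did not pass. At an unadjusted p under 0.05, 3 were lower and 0 higher, the third being Nfkbie. Of all 16931 tested genes 5467 were under that value in limma, in either direction, so 3 of 10 is near the background. By adjusted p 11.5% of all tested genes were called, 5.98% higher and 5.53% lower. The median log2 fold change of the 10 was -0.15, beside 0.02 over all tested genes and 0.16 over the 10006 tested genes with a mean of at least 100. Groups did not overlap for 3 of the 10, all lower (Rel, Nfkbiz and Nfkbie), beside 28.8% of all tested genes, of which 14.1% were lower and 14.7% higher. A count of 3 of 10 without overlap is near the background.

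**Figure D1:**
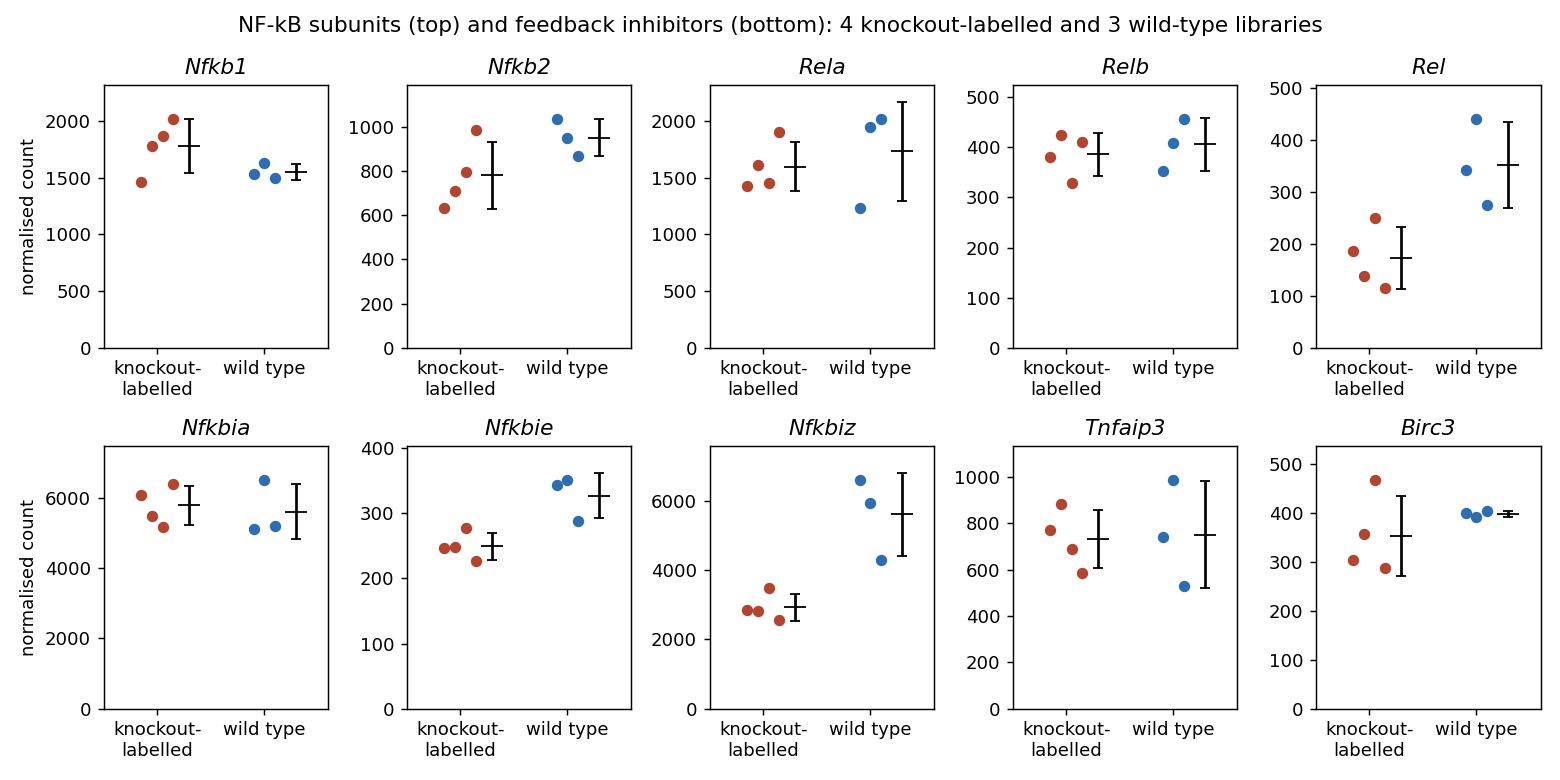
Normalised counts (vertical axes, from 0) of the 5 subunit genes (top) and 5 inhibitor genes (bottom), 1 point per library, with 4 knockout-labelled libraries left and 3 wild-type libraries right. Bars give mean ± SD. Rel, Nfkbiz and Nfkbie have every knockout-labelled point below every wild-type point.

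Rel encodes c-Rel, an activating subunit best known from lymphocytes and myeloid cells. It stood at 186, 139, 249.9 and 115 normalised counts in knockout-labelled libraries 1 to 4, against 342, 439.9 and 275 in wild-type libraries 1 to 3. The groups did not overlap, and knockout-labelled library 3 and wild-type library 3 were nearest to each other. Knockout-labelled libraries averaged 173 ± 59.4 (SD, n = 4) against 352 ± 82.8 in wild type (SD, n = 3), and Rel fell by 1.06 on the log2 scale (SE 0.26, 95% interval -1.62 to -0.50, adjusted p = 0.0260 in limma). The call did not hold without wild-type library 1 (-1.07, adjusted p = 0.121), without wild-type library 2 (-0.89, adjusted p = 0.0770) or without knockout-labelled library 4 (-0.89, adjusted p = 0.0621).

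Since c-Rel is rich in leukocytes, markers of those cells are given beside it. The 8 lymphocyte markers summed to 51.9 to 80.9 normalised counts in knockout-labelled libraries and 109 to 237 in wild type. Of these 8, 3 (Cd3e, Cd79b and Nkg7) were under 5 in every library, 3 were tested and 1, Cd3d, fell. Cd3d, which encodes a chain of the T cell receptor complex as Cd3e does, was at 26.3, 39.1, 34.8 and 42.0 normalised counts in knockout-labelled libraries, against 177, 75.5 and 74.9 in wild type. Ms4a1, at a mean too low for the test, was also lower without overlap, at 0, 0, 6.23 and 4.07 against 14.3, 13.5 and 10.3. The separation of the sums rested on Cd3d. The other 7 markers summed to 38.3, 12.9, 30.7 and 38.9 in knockout-labelled libraries, against 60.0, 90.3 and 33.6 in wild type, and the groups overlapped. The 10 macrophage markers summed to 271 to 440.5 in knockout-labelled libraries and 217 to 286 in wild type, and their members went different ways. Of 6 tested, 1 rose and 0 fell. Lyz2, the lysozyme gene, averaged 204 ± 59.3 (SD, n = 4) and 62.9 ± 18.6 (SD, n = 3) and rose by 1.67 on the log2 scale (adjusted p = 0.00827 in limma). Cd68 averaged 33.5 ± 8.56 and 80.3 ± 30.1 without overlap (log2 fold change -1.19, adjusted p = 0.0580), and Csf1r 22.0 ± 16.4 and 42.4 ± 17.9 with overlap (log2 fold change -1.18, adjusted p = 0.200). The complement genes C1qa, C1qb and C1qc were low but higher in knockout-labelled libraries without overlap. C1qb averaged 15.4 ± 10.6 and 2.89 ± 1.72 (log2 fold change 1.92, adjusted p = 0.121 in limma). C1qa and C1qc had means too low for the test. Of the 6 tested macrophage markers, 3 had a log2 fold change above 0 and 3 below. Without Lyz2 the other 9 summed to 118 to 185 in knockout-labelled libraries and 141 to 232 in wild type. The 4 neutrophil markers summed to 164, 36.1, 27.2 and 16.8 in knockout-labelled libraries, against 32.3, 29.9 and 32.9 in wild type, and the groups overlapped. Of these 4 only 1, S100a9, was tested, and it did not pass. The pan-leukocyte gene Ptprc averaged 14.4 ± 7.43 and 26.5 ± 13.2. In bulk RNA fewer cells of a type and less RNA per cell cannot be told apart. The part of leukocytes in the Rel difference was not tested.

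The remaining subunit genes did not pass the test. Rela encodes the main activating subunit of the canonical pathway. Its values were 1422, 1607, 1455 and 1899 normalised counts in knockout-labelled libraries, against 1231, 1948 and 2014 in wild type. Wild-type library 1 was the lowest of all 7 and the others of its group the highest, so the groups overlapped throughout (log2 fold change -0.09, SE 0.17, 95% interval -0.47 to 0.28, adjusted p = 0.741).

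Nfkb1 encodes a precursor cut to the subunit that pairs with RelA. Its values were 1459, 1778, 1866 and 2016 normalised counts in knockout-labelled libraries, against 1529, 1631 and 1495 in wild type. In the knockout-labelled group 3 libraries lay above all wild-type libraries and 1 lay below them (log2 fold change 0.19, SE 0.14, 95% interval -0.10 to 0.48, adjusted p = 0.349).

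Nfkb2 encodes the precursor of the alternative pathway, which is processed on signals through NIK. Its values were 635, 708, 794 and 984 normalised counts in knockout-labelled libraries, against 1034, 948 and 868 in wild type. Knockout-labelled library 4 alone reached into the wild-type range (log2 fold change -0.30, SE 0.16, 95% interval -0.65 to 0.05, adjusted p = 0.212). Exons of Nfkb2 share 531 of 4584 bases with an antisense noncoding RNA and 299 with Psd on the other strand in the GENCODE annotation, and whether counting used strand was not stated, so some reads may belong to those genes.

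Relb, the partner of the alternative pathway, was at 381, 424, 328 and 410.1 normalised counts in knockout-labelled libraries and at 352, 409 and 456 in wild type. Its groups overlapped almost fully (log2 fold change -0.07, SE 0.17, 95% interval -0.43 to 0.29, adjusted p = 0.796).

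**Figure D2:**
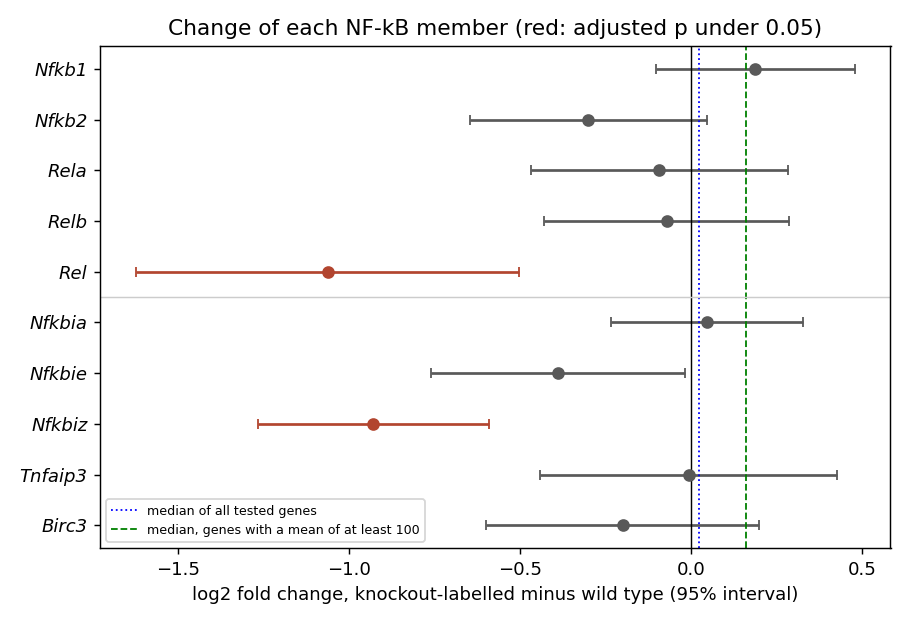
Log2 fold change of each gene (horizontal axis, knockout-labelled minus wild type) with its 95% interval from limma, subunits above and inhibitors below the grey line. Red marks Rel (-1.06) and Nfkbiz (-0.93), the 2 genes called. Dotted and dashed lines mark the medians of all tested genes (0.02) and of those with a mean of at least 100 (0.16).

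Among the inhibitors, Nfkbiz differed most. It encodes IκBζ, an atypical IκB protein that works in the nucleus and helps switch on some secondary NF-kB targets. It stood at 2830.1, 2807, 3483 and 2545 normalised counts in knockout-labelled libraries, against 6593, 5936 and 4280.2 in wild type. Every knockout-labelled value lay below every wild-type value, with wild-type library 3 the closest. Knockout-labelled libraries averaged 2916 ± 399 (SD, n = 4) against 5603 ± 1192 in wild type (SD, n = 3), and Nfkbiz fell by 0.93 on the log2 scale (SE 0.16, 95% interval -1.27 to -0.59, adjusted p = 0.00845 in limma). Leaving out wild-type library 1 ended the call (-0.80, adjusted p = 0.0653). The call held in the 6 fits that left out another library, at adjusted p = 0.0038 to 0.0261.

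Nfkbie encodes IκBε, a cytoplasmic inhibitor. It stood at 246, 248, 277 and 226 normalised counts in knockout-labelled libraries, against 343, 351 and 288 in wild type. The groups did not overlap, but knockout-labelled library 3 and wild-type library 3 lay close together. Knockout-labelled libraries averaged 249 ± 20.9 (SD, n = 4) against 327 ± 34.5 in wild type (SD, n = 3), which is -0.39 on the log2 scale that did not pass (SE 0.17, 95% interval -0.76 to -0.02, adjusted p = 0.139 in limma). It passed in 1 of 20 alternative settings, with libraries scaled to equal totals (-0.61, adjusted p = 0.0438).

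Nfkbia encodes IκBα, the inhibitor that is rebuilt first after NF-kB activation and is often read as a sign of pathway activity. It stood at 6074, 5477, 5170.2 and 6385 normalised counts in knockout-labelled libraries, against 5105, 6499.6 and 5203 in wild type. Wild type held both the lowest and the highest of the 7 values. Knockout-labelled libraries averaged 5777 ± 552 (SD, n = 4) against 5603 ± 778 in wild type (SD, n = 3), which is 0.05 on the log2 scale (SE 0.13, adjusted p = 0.824 in limma). Its 95% interval, -0.23 to 0.33, does not reach the estimates for Rel or Nfkbiz. The sign of the difference changed in 7 of 20 alternative settings.

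Tnfaip3 encodes a ubiquitin-editing enzyme that shuts off signalling below the tumour necrosis factor receptor. It stood at 769, 883, 689 and 586 normalised counts in knockout-labelled libraries, against 739, 986 and 527 in wild type. The wild-type values enclosed all 4 of the other group (log2 fold change -0.0068, SE 0.20, 95% interval -0.44 to 0.43, adjusted p = 0.985).

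Birc3 encodes a ubiquitin ligase of the inhibitor of apoptosis family that acts at the same receptor complex. It stood at 303, 356, 467 and 287 normalised counts in knockout-labelled libraries, against 399.9, 392 and 404 in wild type. Knockout-labelled library 3 lay above all wild-type values and the other 3 libraries below them (log2 fold change -0.20, SE 0.19, 95% interval -0.60 to 0.20, adjusted p = 0.475).

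Ratios of a pair of these genes within a library do not depend on how libraries were scaled. The ratio of Nfkbiz to Nfkbia counts was 0.466, 0.512, 0.674 and 0.399 in knockout-labelled libraries, against 1.29, 0.913 and 0.823 in wild type, and the groups did not overlap. The ratio of Nfkbie to Nfkbia was 0.0437 ± 0.00771 (SD, n = 4) and 0.0589 ± 0.00724 (SD, n = 3), again without overlap, though the nearest values were 0.0536 and 0.0541. The ratio of Nfkb2 to Nfkb1 was 0.435, 0.398, 0.425 and 0.488 in knockout-labelled libraries, against 0.676, 0.581 and 0.580 in wild type, and did not overlap. Neither Nfkb2 nor Nfkb1 passed alone. The ratio of Rel to Rela, 0.131, 0.0863, 0.172 and 0.0608 against 0.278, 0.226 and 0.137, did overlap. The other 4 of 8 ratios examined, those of Nfkbia and Relb to Rela and of Birc3 and Tnfaip3 to Nfkbia, overlapped as well. Over all tested genes 22.0% had a ratio to Nfkbia without overlap, 22.4% a ratio to Nfkb1 and 19.6% a ratio to Rela.

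Levels of different genes were set side by side per kilobase of annotated exon, with the exons of all annotated transcripts of a gene merged. That length was 12.061 kb for Nfkb1 and 3.072 kb for Rela, whose mean counts were 1682 and 1654. The order below thus depends in part on annotated length, and which transcripts were expressed was not tested. Nfkbia was highest, at 3588 ± 343 normalised counts per kilobase in knockout-labelled libraries and 3479.96 ± 483 in wild type. Nfkbiz followed at 581 ± 79.6 and 1117 ± 237, and Rela at 519 ± 70.8 and 563 ± 141. In the knockout-labelled group Nfkbiz and Rela thus lay within their spread, while in wild type their SD ranges did not meet. Nfkb2 (170.2 ± 32.8 and 207 ± 18.2) and Nfkb1 (148 ± 19.5 and 129 ± 5.86) came next. Tnfaip3 (101 ± 17.4 and 104 ± 31.8), Relb (99.3 ± 10.9 and 104 ± 13.4), Nfkbie (81.9 ± 6.85 and 108 ± 11.3) and Birc3 (70.6 ± 16.3 and 79.6 ± 1.25) formed a group in which neighbouring genes mostly lay within their spread. Rel was the lowest of the 10 in both groups, at 23.1 ± 7.95 and 47.2 ± 11.1 per kilobase.

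The receptor genes are given beside the 3 genes that did not overlap, since their level also separated the groups. Among knockout-labelled libraries, number 3 had the highest receptor level and also the highest Rel, Nfkbiz and Nfkbie. Among wild-type libraries, number 1 had the highest receptor level and the highest Nfkbiz, while Rel and Nfkbie were highest in number 2. Per exonic kilobase the receptor genes held 1.39 to 2.12 normalised counts in knockout-labelled libraries and 3.03 to 6.06 in wild type. A level of that size over the exons of Rel equals 5.80% to 8.97% of its value in knockout-labelled libraries and 5.56% to 13.2% in wild type. For Nfkbiz the share was 0.256% to 0.306% and 0.277% to 0.462%. After subtraction of that level Rel stood at 175, 127, 234 and 105, against 297, 415 and 253, still without overlap. The log2 fold changes were then -1.03 for Rel (SE 0.31, adjusted p = 0.0936) and -0.93 for Nfkbiz (SE 0.17, adjusted p = 0.0539), neither past the threshold. With the receptor level as a covariate limma called 0 of 16931 genes, 749 having an unadjusted p under 0.05. The estimates were then -0.72 for Rel (SE 0.50, adjusted p = 0.996), -0.39 for Nfkbiz (SE 0.22, adjusted p = 0.996) and -0.18 for Nfkbie (SE 0.29, adjusted p = 0.996). Of the 10 members Rela alone had an unadjusted p under 0.05 in that fit, at -0.80 (SE 0.21, unadjusted p = 0.00322, adjusted p = 0.996), against -0.09 without the covariate. The covariate itself separates the groups, so these fits rest on its spread within each group.

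**Figure D3:**
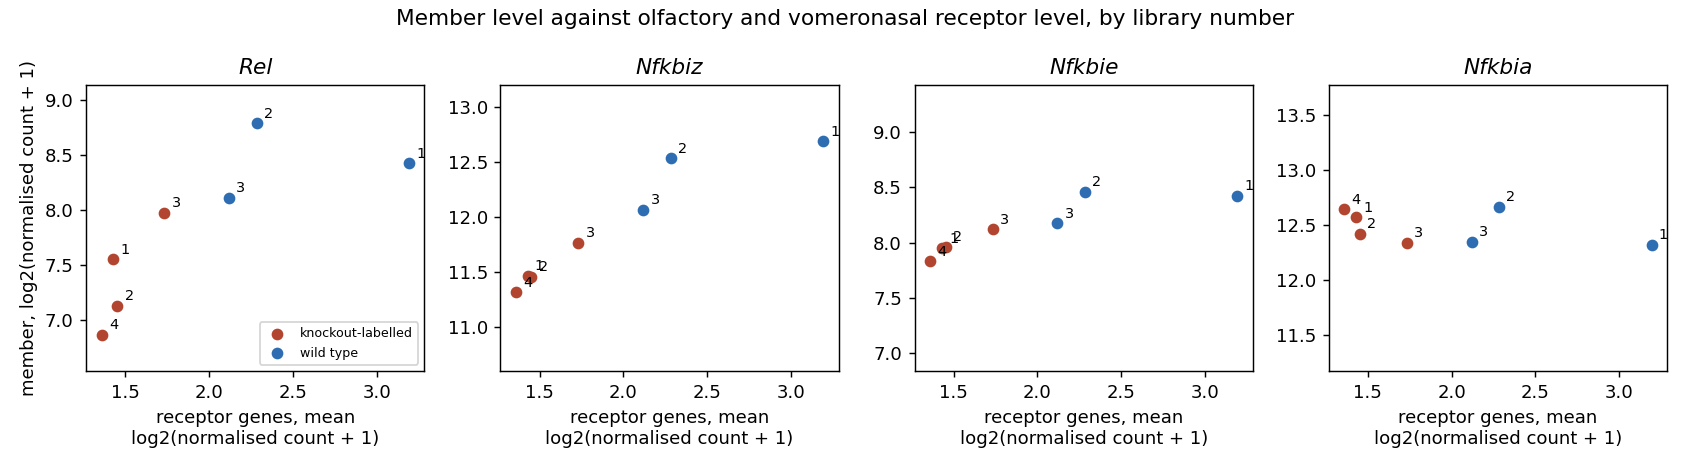
Level of Rel, Nfkbiz, Nfkbie and Nfkbia (vertical axes, log2 of normalised count plus 1, each spanning the same range) against the mean log2 level of olfactory and vomeronasal receptor genes (horizontal axis), 1 point per library, numbered within its group. Knockout-labelled libraries lie at 1.36 to 1.73 and wild-type libraries at 2.12 to 3.19, and the first 3 genes are lower at the low end while Nfkbia is not.

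**Figure D4:**
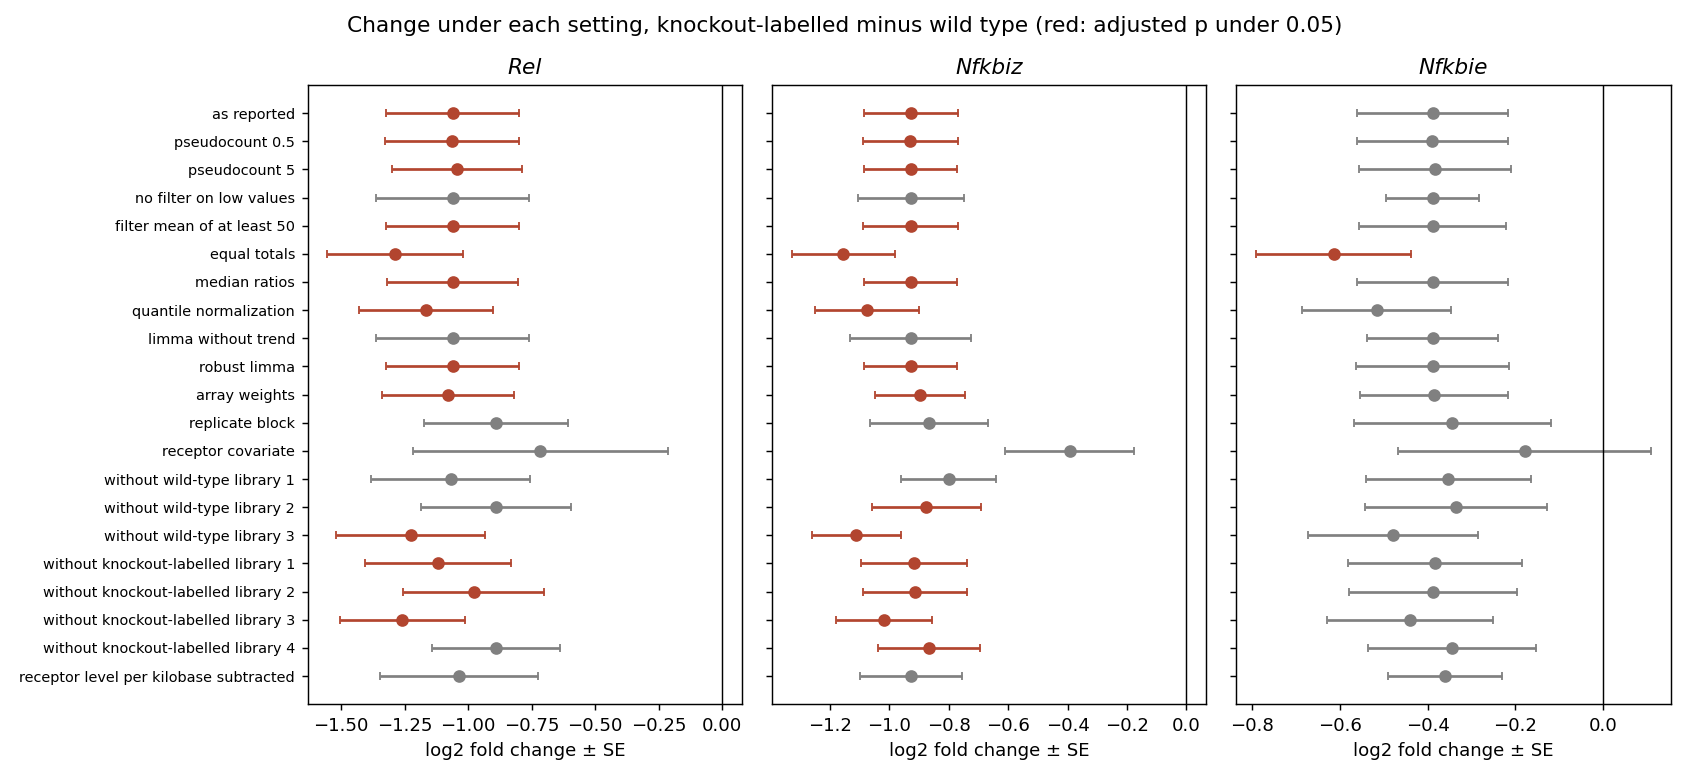
Log2 fold change ± SE (horizontal axes, knockout-labelled minus wild type) of Rel, Nfkbiz and Nfkbie as reported and under 20 alternative settings, red where the adjusted p is under 0.05. Every estimate is below 0. Rel was called in 12 of the 20 alternatives, Nfkbiz in 14 and Nfkbie in 1.

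Genes whose 7 values followed those of a chosen gene most closely were named for 2 subunit genes and 2 inhibitor genes, by the root mean square difference of centred log2 values among 9666 other genes with a mean of at least 100, leaving out symbols that begin with Gm and a number or end in Rik. For Nfkb1 they were Fam149b (0.0556 log2 units), Chml (0.0574) and Ankib1 (0.0608). For Rela they were Kctd9 (0.0591), Rnf144a (0.0860) and Ccdc91 (0.0958). Nfkbia was followed by Otud3 (0.0417), Aldh3a2 (0.0496) and Hnrnpa3 (0.0505), and Tnfaip3 by Kin (0.0789), Zfp51 (0.0847) and Trmt1 (0.117). None of these 12 genes belongs to the NF-kB lists used here. Those lists hold 10 members and 99 further genes, few beside the 9666 compared, so no conclusion is drawn from that.

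Of 99 further genes of the pathway, 84 were tested, of which 3 rose and 2 fell, with a median log2 fold change of 0.04. That is 5 of 84, beside 11.5% of all tested genes. At an unadjusted p under 0.05 in limma were 18 of the 84, beside 5467 of 16931 tested genes. Leaving out wild-type library 1 or knockout-labelled library 1 left 0 of the pathway genes called in limma. At an unadjusted p under 0.05 were then 13 and 14, beside 3339 of 16409 and 4590 of 17124 tested genes. Leaving out wild-type library 2 or knockout-labelled library 2 left 2 called, and leaving out knockout-labelled library 4 left 1.

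Of 11 receptor genes of the pathway 0 passed in limma, 1 having an unadjusted p under 0.05, and their median was 0.04. That gene was Tnfrsf12a, the receptor of TWEAK, at 116 ± 35.9 normalised counts (SD, n = 4) in knockout-labelled libraries and 179.9 ± 10.7 (SD, n = 3) in wild type (log2 fold change -0.68, SE 0.26, adjusted p = 0.0975). Tnfrsf1a, the main receptor of tumour necrosis factor, averaged 3392 ± 236 against 2895 ± 449 in wild type (log2 difference 0.24, limma SE 0.13, adjusted p = 0.226). Of 10 ligand genes only 3 had the mean of 10 needed for the test, and 0 of these passed, with 2 at an unadjusted p under 0.05 and a median of 0.44. Tnfsf12, which encodes TWEAK, averaged 719.7 ± 177 against 519.7 ± 52.3 in wild type (log2 difference 0.44, limma SE 0.18, adjusted p = 0.113), and the alarmin gene Il33 averaged 208 ± 42.4 against 138 ± 41.9 in wild type (log2 difference 0.62, limma SE 0.25, adjusted p = 0.114). Tnf itself averaged 19.7 ± 11.5 and 28.9 ± 17.5 normalised counts.

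Of 29 genes for kinases and adaptors of the pathway 0 rose and 2 fell, with a median of 0.05. At an unadjusted p under 0.05, 2 were higher and 5 lower. Rnf31 encodes the catalytic part of the ligase that builds linear ubiquitin chains at the receptor. It averaged 683 ± 122 normalised counts in knockout-labelled libraries and 1058 ± 53.1 in wild type, without overlap, and fell by 0.65 on the log2 scale (SE 0.16, adjusted p = 0.0248). Map3k14 encodes NIK, the kinase that starts processing of the Nfkb2 product. It averaged 281 ± 59.0 and 468 ± 92.5, also without overlap, and fell by 0.74 (SE 0.20, adjusted p = 0.0366). The Rnf31 call was lost without wild-type library 1 (-0.61, adjusted p = 0.113), knockout-labelled library 1 (-0.56, adjusted p = 0.0660) or knockout-labelled library 4 (-0.65, adjusted p = 0.0523). The Map3k14 call was lost without wild-type library 1 (-0.72, adjusted p = 0.143) or 2 (-0.60, adjusted p = 0.111) and without knockout-labelled library 1 (-0.72, adjusted p = 0.0791) or 2 (-0.62, adjusted p = 0.0685).

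Of 17 other inhibitor genes 16 were tested, 2 rose and 0 fell, with a median of 0.02. At an unadjusted p under 0.05, 4 were lower. Commd1, whose human product promotes degradation of RelA, averaged 445 ± 56.1 normalised counts in knockout-labelled libraries and 233 ± 92.9 in wild type, and rose by 1.00 on the log2 scale (SE 0.24, adjusted p = 0.0243). Nkiras2, a small Ras-like protein that binds IκB, averaged 369 ± 83.3 and 220.3 ± 64.5, with overlapping groups, and rose by 0.76 (SE 0.23, adjusted p = 0.0483). The Nkiras2 call was lost in 6 of 7 fits that left out a library (0.54 to 0.88, adjusted p = 0.0582 to 0.222) and held without wild-type library 3, and 5 of 20 alternative settings kept it. The Commd1 call was lost without wild-type library 1 (0.70, adjusted p = 0.121), knockout-labelled library 1 (0.96, adjusted p = 0.0594) or knockout-labelled library 4 (0.94, adjusted p = 0.0588), and its estimate was -0.014 with the receptor covariate.

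Of 31 listed target genes of endothelial NF-kB 25 were tested, 1 rose and 0 fell, with a median of 0.03. At an unadjusted p under 0.05 in limma, 2 were higher and 0 lower, beside 5467 of 16931 tested genes in either direction. The gene that rose was Sod2, the mitochondrial superoxide dismutase. It stood at 1018, 1047, 879 and 1044 normalised counts in knockout-labelled libraries, against 645, 815 and 703 in wild type, and the groups did not overlap (log2 fold change 0.47, SE 0.14, adjusted p = 0.0461). The call was lost in 6 of 7 fits that left out a library (0.39 to 0.56, adjusted p = 0.0513 to 0.167) and held without knockout-labelled library 3, and 6 of 20 alternative settings kept it. The adhesion molecules that inflamed endothelium displays did not pass. These 4, picked out after their values were seen, were Vcam1 (log2 fold change 0.36, adjusted p = 0.0832), Icam1 (0.11, adjusted p = 0.520), Sele (-0.24, adjusted p = 0.472) and Selp (-0.22, adjusted p = 0.348). Vcam1 stood at 1638, 1939, 1819 and 2054 normalised counts in knockout-labelled libraries, against 1371, 1363 and 1624 in wild type. Its groups did not overlap, as for 28.8% of all tested genes, while those of Icam1, Sele and Selp did.

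**Figure D5:**
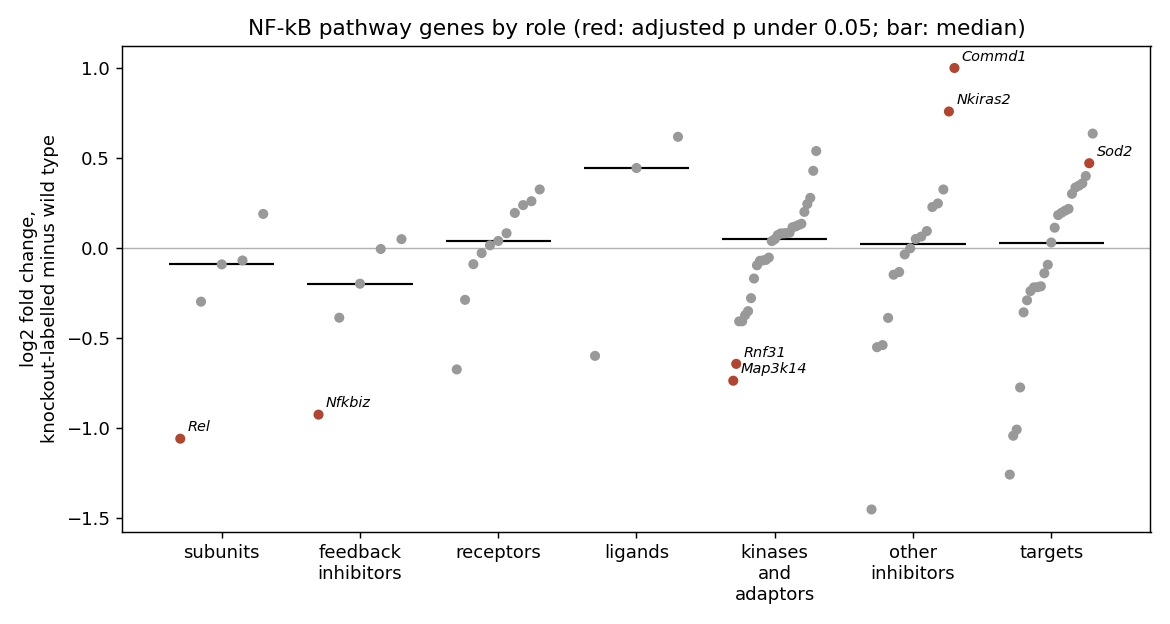
Log2 fold changes (vertical axis, knockout-labelled minus wild type) of all tested genes of each list, sorted within the list, with the list median as a bar. Red marks the 7 genes called, Rel, Nfkbiz, Rnf31 and Map3k14 below 0 and Commd1, Nkiras2 and Sod2 above it.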

How the data were processed

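Expression was measured in 7 bulk RNA sequencing libraries of mouse muscle endothelial cells, built from 10 ng of RNA with a Takara Clontech PicoMammalian v2 kit per the labels' protocols. The values are the authors' normalised counts, a scaled signal per gene deposited by the authors as a table for each library. Tools listed in the submitters' processing notes are featureCounts, kallisto, DESeq2 and DESeq, without roles, and the build is GRCm39. Reads were estimated as the total over the smallest value repeated at least 20 times. Dividing low values by that step gave whole numbers, within 0.02, for only 24.4% to 48.6%, so read numbers could not be recovered and no count test was run.

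Genes with a mean of at least 10 were tested on log2(value + 1), which understates changes of low genes, with limma 3.58.1 (mean-variance trend) in R 4.3.3 and Benjamini-Hochberg adjustment over all 16931 tested genes. Exonic lengths came from GENCODE M21 by symbol and covered 97.6% of tested genes. The receptor level uses 1153 genes, of which 1133 had a length. Promoter positions are in the older build GRCm38.p6 and were matched by symbol only.

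The genes, lists, rules and alternatives were chosen with earlier results of these data known. By rule, each pathway list had its called members named, up to 3 each way, or else the 2 with the smallest p. The 3 genes closest in profile to 4 chosen members were named as well. Other genes, such as Tnf, the adhesion molecules, Nfkbid, Bcl3 and single leukocyte markers, were picked outside this rule. Subtraction of the receptor level was added after the data were seen.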

Additional observations from a re-analysis of the deposited data

Results flagged for a closer look

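Sod2 in knockout-labelled library 3, at 879 normalised counts, stood apart from the other 3 libraries of its group, which were at 1018 to 1047. Its gap took 0.830 of the group's range, just above the limit of 0.829 for 4 samples. It was the 1 value flagged of 34 sets of values examined, and chance flags about 1 in 20 groups. The same library had the highest receptor level of its group, at 1.73 log2 units.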

How the results depend on the processing

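Rel and Nfkbiz stayed below 0 in all 20 alternatives (-1.29 to -0.72 and -1.15 to -0.39), with adjusted p of 0.0137 to 0.996 and 0.0038 to 0.996. Nfkbie, at -0.61 to -0.18, also stayed below 0. The count of 2 members called went to 0 with no filter on low values, in limma without trend, with the replicate block, with the receptor covariate and with the receptor level per kilobase subtracted, where 3, 3, 3, 1 and 3 members had an unadjusted p under 0.05. The count of 5 pathway genes went to 0 in the same 5 settings, with 20, 16, 12, 2 and 20 at an unadjusted p under 0.05, to 10 with equal totals and to 3 with array weights. Over all tested genes of those 5 settings, 7416 of 30899, 4926 of 16931, 3769 of 16931, 749 of 16931 and 4914 of 16530 had such a p. Leaving out a library gave 0 to 2 members and 0 to 6 pathway genes. With all 7 libraries 1949 genes were called, 1013 higher and 936 lower. With no filter 210 were called (51 higher, 159 lower), with quantile normalization 1102 (447 higher), without trend 17 (0 higher, 17 lower), with the receptor covariate 0 higher and 0 lower, and with the receptor level subtracted 186 (119 higher, 67 lower). A filter at a mean of 50 left 563 lower, and equal totals gave 228 higher and 1645 lower while moving the median of all genes to -0.21. Leaving out a library gave 43 to 1975 genes, 19 to 995 higher and 24 to 1117 lower, the lowest counts being those without wild-type library 1. The cause was not tested.

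The labels share replicate numbers, but same-numbered libraries did not deviate together (correlations of -0.081, -0.048 and -0.12), and none correlated best with its own number. With the number as a block 119 genes were called, 35 higher and 84 lower, Rel stood at -0.89 (adjusted p = 0.117) and Nfkbiz at -0.87 (adjusted p = 0.0582). Knockout-labelled library 4 has no partner and adds nothing to that estimate.

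Some signs turned. Nfkbia was -0.18 with equal totals, -0.11 with quantile normalization, -0.0018 with the block and -0.17 with the covariate, and it ran from -0.015 to 0.16 when 1 library was left out, below 0 without wild-type library 1 or 3 or knockout-labelled library 4. Tnfaip3 was 0.094 with the block, 0.14 with the covariate and 0.031 with subtraction, and -0.24 to 0.21 when 1 library was left out. Nfkb1 was -0.038 with equal totals, and with the covariate Birc3 was 0.0083 and Commd1, at 1.00 without it, was -0.014. When 1 library was left out, Rela ran from -0.32 to 0.034, above 0 without wild-type library 2 or 3, and Relb from -0.17 to 0.017. Depth limits genes such as Tnf and Nfkbid, with means under 50 normalised counts.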

Other observations

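Nuclear IκB proteins other than IκBζ were looked at after the values of Nfkbiz were seen. Nfkbid was at 20.1, 41.1, 29.7 and 15.3 normalised counts in knockout-labelled libraries, against 141, 64.0 and 37.4 in wild type, with overlapping groups (log2 fold change -1.46, SE 0.48, adjusted p = 0.0629 in limma). Bcl3 was at 301, 342, 349 and 279, against 385, 506 and 368, without overlap (log2 fold change -0.39, SE 0.18, adjusted p = 0.143). Nfkbid passed in 1 of 19 alternative settings, without wild-type library 3 (-1.90, adjusted p = 0.0367), and Bcl3 in 1 of 20, with libraries scaled to equal totals (-0.62, adjusted p = 0.0416). Without wild-type library 1, where Nfkbid was highest, its estimate was -0.95 (adjusted p = 0.307 in limma). With the receptor covariate its sign turned, to 0.20 (SE 0.72).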
